A study of Drosophila melanogaster with 8 samples.

Results

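Dopamine genes were followed through the loss of a BMP receptor in the larval nerve cord of Drosophila melanogaster. The 9 genes were chosen by name from the 14175 gene identifiers in the deposited files. They are ple, Ddc and Pu for synthesis, DAT and e for removal, and the receptor genes Dop1R1, Dop1R2, Dop2R and DopEcR. All 9 were matched by FlyBase symbol and all 9 passed the filter on low counts, so each was tested.

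RNA was sequenced from ventral nerve cords of female wandering larvae after the brain lobes had been cut away, with 4 libraries of 25 pooled cords for each genotype. Mutant larvae carried witA12,st1 over witB11,st1, and control larvae carried witA12,st1 over a wild-type chromosome 3. Both genotypes were in a w1118 background, and both held 1 copy of witA12 and of the eye-colour marker st1, so that the controls were heterozygous and not wild type. Mutants had a second st1 copy and a second mutated wit chromosome, and effects of these cannot be told apart. The wit product is a BMP receptor of type II, and the mutation was present in every tissue of the larva, muscle included. Libraries held 20923717 to 32740480 estimated counts. Nothing in the labels says that same-numbered libraries shared a day or a vial.

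Dopamine is made from tyrosine in a pair of steps. Tyrosine hydroxylase, encoded by ple, needs tetrahydrobiopterin, whose synthesis starts with the GTP cyclohydrolase encoded by Pu, and dopa decarboxylase, encoded by Ddc, then removes a carboxyl group. Dopa decarboxylase also serves serotonin synthesis, and the enzymes work in cuticle as well, where dopamine is a precursor of tanning and pigment. After release dopamine is taken up by the transporter DAT or conjugated to beta-alanine by the ebony enzyme, encoded by e. It acts on G protein-coupled receptors: Dop1R1 and Dop1R2 are D1-like, Dop2R is D2-like, and DopEcR responds to both dopamine and ecdysone. In the larval nerve cord a small number of neurons make dopamine, while receptors are found more widely.

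Of the 9 genes, 2 were higher in mutants and 1 was lower, and 6 did not pass the test. Levels are given as CPM, counts scaled to a common library size. Dop1R1 rose 1.78-fold, Ddc rose 1.39-fold and Pu fell 1.68-fold. Calls were made at an adjusted p under 0.05 with edgeR's quasi-likelihood test and Benjamini-Hochberg adjustment over all 9176 genes tested. Over all of these, 14.8% were called, 6.12% as higher and 8.66% as lower. Control and mutant values did not overlap for 3 of the 9 genes, the same 3, against 20.5% of all genes tested. The median log2 fold change was -0.14 over the 9 genes and 0.01 over all genes tested. In pooled tissue, fewer cells of a type and less RNA per cell cannot be told apart.

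**Figure D1:**
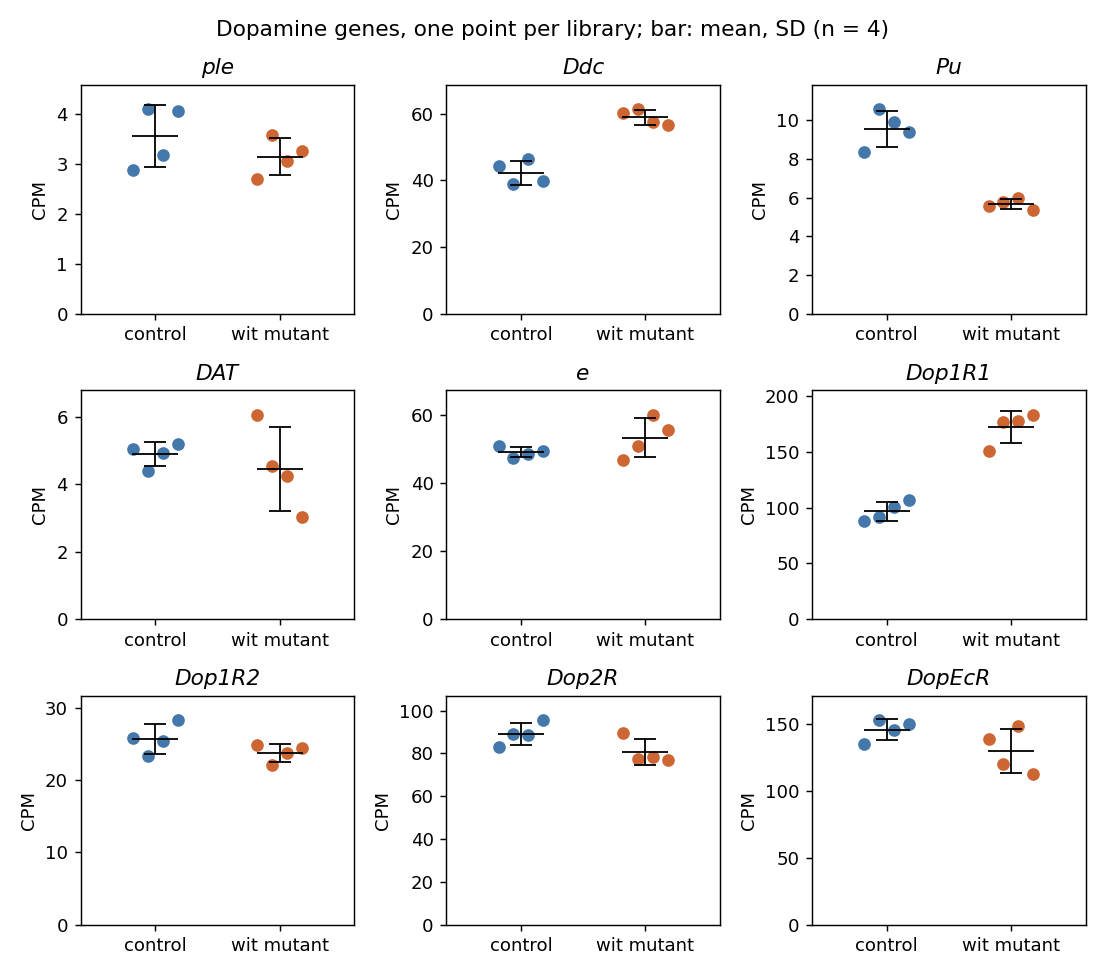
Normalised CPM (y axis from 0) of the 9 dopamine genes in control and wit mutant libraries. Each point is a library, and bars are means with SD (n = 4). The groups are apart for Ddc, Pu and Dop1R1 and overlap for the other 6.

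**Figure D2:**
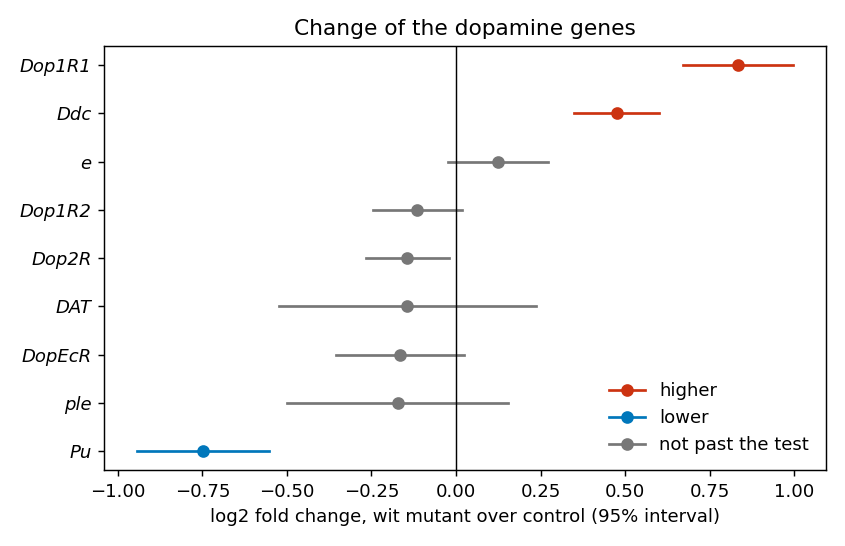
Log2 fold change of each dopamine gene (x axis, wit mutant over control) with its 95% interval, from edgeR. Dop1R1 (0.83) and Ddc (0.48) lie above 0 and Pu (-0.75) lies below.

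Among the synthesis genes, the cofactor gene Pu fell, the hydroxylase gene ple did not pass the test, and the decarboxylase gene Ddc rose. Pu (FBgn0003162, chromosome 2R, 21175315 to 21182608) measured 8.35, 10.6, 9.90 and 9.40 CPM in control libraries 1 to 4 and 5.59, 5.80, 5.99 and 5.34 CPM in mutant libraries 1 to 4. The 4 mutant values were close together and all lay below the lowest control. The means were 9.55 ± 0.933 and 5.68 ± 0.279 CPM (SD, n = 4 each), a log2 fold change of -0.75 (SE 0.09, edgeR adjusted p = 0.000171). Counts behind these values ran from 118 to 300 per library.

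Ddc (FBgn0000422, chromosome 2L, 19116483 to 19120306) moved the other way. It measured 44.2, 38.8, 46.4 and 39.9 CPM in controls and 60.2, 61.3, 57.4 and 56.6 CPM in mutants. Every mutant library was above every control library. The means were 42.3 ± 3.59 and 58.9 ± 2.23 CPM, a log2 fold change of 0.48 (SE 0.06, edgeR adjusted p = 0.000189).

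The ple gene (FBgn0005626, chromosome 3L, 6713356 to 6719525) was the least abundant of the 9. It measured 2.88, 4.10, 3.18 and 4.07 CPM in controls and 2.70, 3.59, 3.05 and 3.26 CPM in mutants, from 57 to 130 counts per library. Controls 2 and 4 were high and controls 1 and 3 were within the range of the mutants. With a log2 fold change of -0.17 (SE 0.15) ple missed the test (edgeR adjusted p = 0.476), and its 95% interval allows a mutant level from 0.708 to 1.11 times that of controls. Controls 2 and 4 also held the most RNA of 1 larval cuticle gene, Lcp1, at 21.7 and 7.77 CPM. It was at 0.249 and 1.08 CPM in controls 1 and 3 and at 0.339 to 1.14 CPM in mutants. Lcp1 is 1 of 12 listed epidermis and cuticle genes. The 6 tested genes of that list went both ways, from -3.53 to 1.06 on the log2 scale, and 0 were called. Without controls 2 and 4 the log2 fold change of ple was 0.06 (edgeR adjusted p = 0.892). Ddc then had 0.38 (0.00416) and Pu -0.68 (0.00837). These 2 libraries were picked after the values were seen. They were the highest controls for ple and the lowest for Ddc. Dropping them had to raise the change of ple and lower that of Ddc, so the shifts say nothing about cuticle. The part of cuticle in the ple values was not tested.

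Neither gene of dopamine removal passed the test. DAT (FBgn0034136, chromosome 2R) measured 5.04, 4.40, 4.95 and 5.20 CPM in controls and 6.06, 4.54, 4.26 and 3.03 CPM in mutants. The mutant values spread widely around the controls, from the highest of the 8 to the lowest. On the log2 scale the difference was -0.14 (SE 0.17) and did not pass (edgeR adjusted p = 0.620), with a 95% interval from 0.695 to 1.18 times the control level. Without mutant replicate 4 it was 0.01 (adjusted p = 0.976).

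The conjugation gene e (FBgn0000527, chromosome 3R) measured 50.7, 47.3, 48.6 and 49.5 CPM in controls and 46.7, 50.9, 60.0 and 55.6 CPM in mutants. Mutants 2, 3 and 4 were above all controls, mutant 2 by a small margin, and mutant 1 was below them. Its log2 fold change of 0.12 (SE 0.07, edgeR adjusted p = 0.240) became 0.18 without mutant replicate 1 and then passed the test (adjusted p = 0.0223). Limma-voom with sample quality weights called e higher with every library kept (0.18, adjusted p = 0.0427). Such weights can count an outlying library less, so this call is not separate from leaving out mutant replicate 1. On the second principal component of log2 CPM, which held 14.3% of the variance, mutant replicate 1 lay farthest from the other mutant libraries.

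Among the receptor genes only Dop1R1 passed the test. Dop1R1 (FBgn0011582, chromosome 3R, 14165379 to 14214810) measured 88.1, 91.7, 100.3 and 107 CPM in controls and 151, 177, 177 and 183 CPM in mutants. Mutant replicate 1 was the lowest mutant and still exceeded the highest control. The means were 96.7 ± 8.39 and 172 ± 14.4 CPM, a log2 fold change of 0.83 (SE 0.07, edgeR adjusted p = 4.52e-05). Of the 562 genes called higher, 75 rose at least as far as Dop1R1, itself included.

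The other D1-like receptor gene, Dop1R2 (FBgn0266137, chromosome 3R), measured 25.9, 23.3, 25.4 and 28.3 CPM in controls and 24.9, 22.1, 23.8 and 24.4 CPM in mutants. The groups overlapped. The fitted log2 fold change, -0.11 with an SE of 0.06, did not pass (edgeR adjusted p = 0.229), and the 95% interval runs from 0.843 to 1.01 times the control level.

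Dop2R (FBgn0053517, chromosome X) measured 83.0, 89.1, 88.6 and 95.4 CPM in controls and 89.7, 77.6, 78.6 and 76.8 CPM in mutants. Mutants 2 to 4 were below all controls, and mutant replicate 1 was within them. The log2 fold change of -0.14 (SE 0.06, edgeR adjusted p = 0.110) was -0.20 without mutant replicate 1 (adjusted p = 0.00617). With every library kept, the 95% interval ran from 0.831 to 0.986 times the control level. Limma-voom with sample quality weights called Dop2R lower with every library kept (-0.17, adjusted p = 0.0150). As for e, that call is not separate from leaving out mutant replicate 1. DopEcR (FBgn0035538, chromosome 3L) measured 135, 152, 146 and 149 CPM in controls and 138, 119.7, 149 and 113 CPM in mutants, with overlap. The change was -0.17 on the log2 scale with an SE of 0.08 (edgeR adjusted p = 0.221), and the 95% interval ran from 0.782 to 1.02 times the control level.

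Leaving out mutant replicate 1 brought the number of called genes from 3 to 5, as e and Dop2R joined. The calls over all genes rose too, from 562 to 1060 higher and from 795 to 1124 lower, so the larger count says nothing particular about the dopamine genes. Ddc, Pu and Dop1R1 were called in each of the 17 alternative settings, with adjusted p of at most 0.00416, 0.00837 and 0.00114.

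Ratios between 2 genes of the same library do not depend on how libraries are scaled. The log2 ratio of Dop1R1 to Dop2R counts was 0.12 ± 0.06 in controls and 1.09 ± 0.23 in mutants (SD, n = 4). No mutant was under 0.75 and no control over 0.18. The difference of 0.98 had an exact two-sided permutation p of 0.0286, which is the smallest that 70 splits of 4 against 4 allow, and an adjusted p of 0.0381 over 4 ratios. The log2 ratio of Dop1R1 to Dop1R2 went from 1.91 ± 0.10 to 2.85 ± 0.17, again without overlap and with the same exact permutation p and adjusted p. So within the nerve cord the D1-like gene Dop1R1 changed unequally from both the other D1-like gene and the D2-like gene.

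The log2 ratio of Ddc to ple was 3.56 ± 0.36 in controls and 4.2 ± 0.17 in mutants (exact permutation p = 0.0286, adjusted p = 0.0381). This difference of 0.64 was 0.32 without controls 2 and 4 (adjusted p = 0.178), where 2 against 4 libraries cannot pass. These were the controls highest in ple and Lcp1 and lowest in Ddc, so a smaller difference was fixed by the choice. The ratio of DAT to ple was 0.47 ± 0.31 in controls and 0.46 ± 0.52 in mutants (exact permutation p = 0.971).

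**Figure D3:**
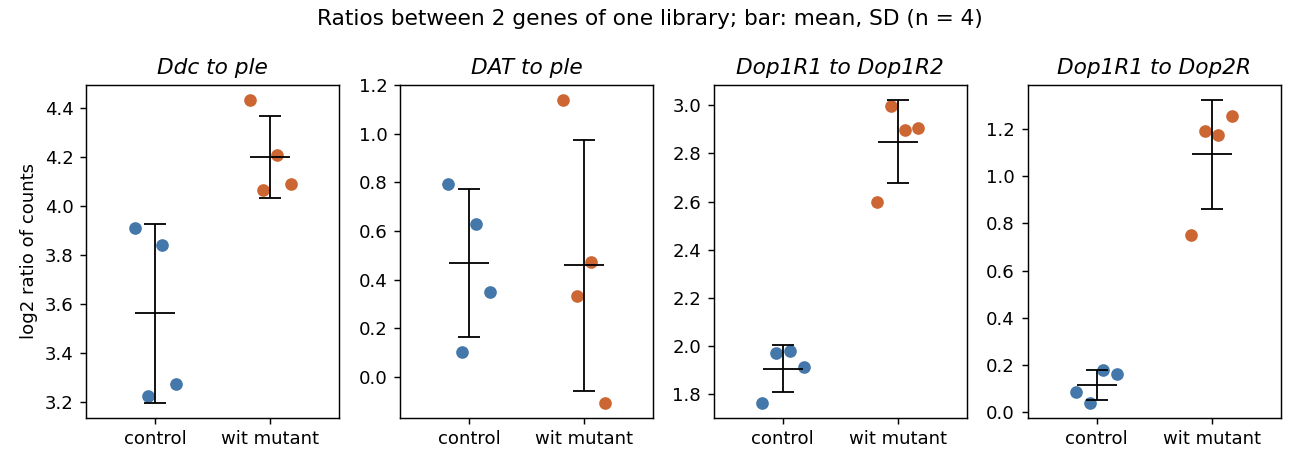
Log2 ratio of the counts of 2 genes within a library (y axes, each with its own range, not starting at 0) in control and wit mutant libraries. Points are libraries and bars are means with SD (n = 4). Both Dop1R1 ratios and the Ddc to ple ratio are apart between genotypes, and the DAT to ple ratio overlaps.

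Levels can be compared between genes only per length, here as CPM per kb of annotated exon. In controls DopEcR was highest at 33.9 ± 1.76 CPM per kb, above e at 15.6 ± 0.458, Ddc at 15.1 ± 1.28 and Dop2R at 13.6 ± 0.779. Values of e and Ddc overlapped, as did those of Ddc and Dop2R. Next came Dop1R1 at 6.64 ± 0.576, Dop1R2 at 4.98 ± 0.393 and Pu at 4.44 ± 0.434 CPM per kb, where Dop1R2 and Pu overlapped. DAT at 1.61 ± 0.115 and ple at 0.934 ± 0.164 CPM per kb were lowest. In mutants Ddc stood at 21.1 ± 0.796 CPM per kb, clear of e at 17.0 ± 1.83, and Dop1R1 at 11.8 ± 0.986 overlapped Dop2R at 12.4 ± 0.926 CPM per kb.

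The place of Dop1R1 in this order depends on its length. Its annotated exons cover 14565 bases, and with the median length of its annotated transcripts it would stand at 36.3 CPM per kb in controls, next to DopEcR at 38.0. Other genes moved as well with the median length, among them Ddc to 20.3, Dop2R to 15.7 and Pu to 5.48 CPM per kb in controls. Only 5 of the 9 genes then kept their place in the order. Comparisons of Dop1R1 between genotypes do not use its length.

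The cofactor pathway beyond Pu showed no called gene. Over all genes tested 14.8% were called, a share that so short a list cannot be told from. Of 7 listed genes of tetrahydrobiopterin synthesis and recycling, phenylalanine supply and ple regulation, 6 were tested and 0 were called, among them pr, Sptr, Pcd, Dhpr and the hydroxylase regulator gene Catsup. The log2 fold changes of these 5 ran from 0.04 for pr to 0.10 for Pcd. The gene Hn, which encodes phenylalanine hydroxylase, was under 0.1 CPM in every library and was not tested. With edgeR 0 of the 6 had an unadjusted p under 0.05, Dhpr being lowest at 0.0587, and DESeq2 and limma-voom (with sample quality weights throughout) also called 0.

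Of 2 packaging genes 1 fell. Vmat, the vesicular transporter that loads dopamine, serotonin and octopamine into vesicles, measured 636, 645, 646 and 612 CPM in controls and 485, 426, 465 and 410.1 CPM in mutants. All mutants were below all controls, with a log2 fold change of -0.51 (SE 0.05, edgeR adjusted p = 5.85e-05). The related transporter gene prt had -0.02 and did not pass.

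Genes that conjugate dopamine or use it or its precursor in pigment and melanin changed in both directions. Of 21 matched genes 13 were under 1 CPM in every library. Of the 11 tested 2 rose and 2 fell, against 6.12% and 8.66% of all genes tested. AANATL2, of the arylalkylamine N-acetyltransferase family, rose from 23.1 ± 1.57 to 34.2 ± 4.73 CPM (log2 fold change 0.57, edgeR adjusted p = 0.00375). Of the yellow family, yellow-c rose from 1.16 to 2.10 CPM (0.85, adjusted p = 0.00842). The gene y, which acts in black pigment formation, fell from 0.918 to 0.316 CPM (-1.52, adjusted p = 0.00542). Its level was low throughout, with 0.278 to 0.340 CPM in mutants and a highest value of 1.35 CPM in control 2. Without controls 2 and 4 the calls of AANATL2, y and yellow-c were each lost (edgeR adjusted p = 0.0693, 0.0819 and 0.0592). Their log2 fold changes were then 0.54, -1.24 and 0.98. Calls over all genes fell too, to 144 higher and 263 lower, with 2 controls left. Any part of cuticle in these values was not tested. The prophenoloxidase gene PPO2 fell (-1.10, adjusted p = 0.0419), a call that was lost in 11 of 17 settings, among them without any 1 library other than control replicate 2. PPO2 is also 1 of 6 tested hemocyte markers, of which 2 others fell, vkg (-1.07) and Col4a1 (-0.69).

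Downstream of the receptors, 8 of 25 tested genes of G proteins, cAMP and receptor regulation fell and 0 rose, with a median log2 fold change of -0.06. Over all genes tested 8.66% were called lower and 6.12% higher. The arrestin gene krz, whose product turns off G protein-coupled receptors, fell from 123 ± 1.38 to 91.4 ± 2.25 CPM (log2 fold change -0.43, edgeR adjusted p = 5.11e-06). The receptor kinase gene Gprk2 had -0.19, the adenylyl cyclase gene Ac78C -0.25, the catalytic and regulatory subunit genes Pka-C1 and Pka-R2 of protein kinase A -0.20 and -0.14. The G protein subunit genes Galphao, Ggamma30A and Galphaq had -0.20, -0.23 and -0.12. Among the 17 that did not pass were Galphas (-0.02), which couples receptors to cyclase activation, Galphai (0.10), the cyclase gene rut (-0.08) and the phosphodiesterase gene dnc (-0.06).

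Calls of Galphaq and Pka-R2 were lost in 10 and 9 of the 17 settings, with adjusted p up to 0.180 and 0.236. Each was lost when any 1 of control replicates 2 to 4 or mutant replicates 3 and 4 was dropped, Galphaq also without control replicate 1 and Pka-R2 also without mutant replicate 2. Neuron marker genes moved with this group: 6 of 8 fell, among them Syx1A (-0.34) and nSyb (-0.22), and their summed level was 7198 to 7773 CPM in controls and 5968 to 6741 CPM in mutants. Of these 6, only Syx1A was called in every setting, and brp, Syt1, futsch and fne were lost when 1 of several libraries was left out, control replicates 2, 3 and 4 among them. By edgeR 8.66% of all genes tested were called lower. The part of this marker list in the group was not tested.

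Other monoamine systems are given beside the dopamine genes because serotonin synthesis shares Ddc, and serotonin and octopamine share Vmat. Of 17 tested genes 7 fell and 0 rose, with a median log2 fold change of -0.13, where 8.66% of all genes tested were called lower and 6.12% higher. Weighted limma-voom called 2 of the 17 higher and 8 lower. The neuron markers described above, 6 of 8 lower with a median of -0.19, moved with this group as well, and their part in it was not tested. The serotonin synthesis gene Trhn fell (-0.62, edgeR adjusted p = 0.00201), as did the octopamine synthesis genes Tdc2 (-0.59) and Tbh (-0.85) and the receptor genes Oct-TyrR (-0.61), Octbeta1R (-0.34), 5-HT1A (-0.24) and 5-HT1B (-0.13). The serotonin transporter gene SerT had -0.25 and did not pass (adjusted p = 0.0907). Tbh missed the test without control replicate 3 (adjusted p = 0.0526), and 5-HT1B was lost in 11 of 17 settings, including without any 1 control replicate or without mutant replicate 2 or 3. Whether ple differed in its change from Trhn or Tdc2 was not tested.

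Of 8 tested genes on a list of transcription factors drawn up for monoamine neurons 0 were called. The list was made by name, and whether its genes, dimm included, act in those neurons was not tested. So short a list cannot be told from the 14.8% called over all genes tested. The gene tup, which is required for dopamine and serotonin identity in the nerve cord, had a log2 fold change of 0.00, eg had -0.32, and vvl and dimm had -0.10 and -0.40 (edgeR adjusted p = 0.0799 and 0.0754). These 2 were the genes with an unadjusted p under 0.05, at 0.0153 and 0.0138, and DESeq2 and limma-voom also called 0 of the 8.

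**Figure D4:**
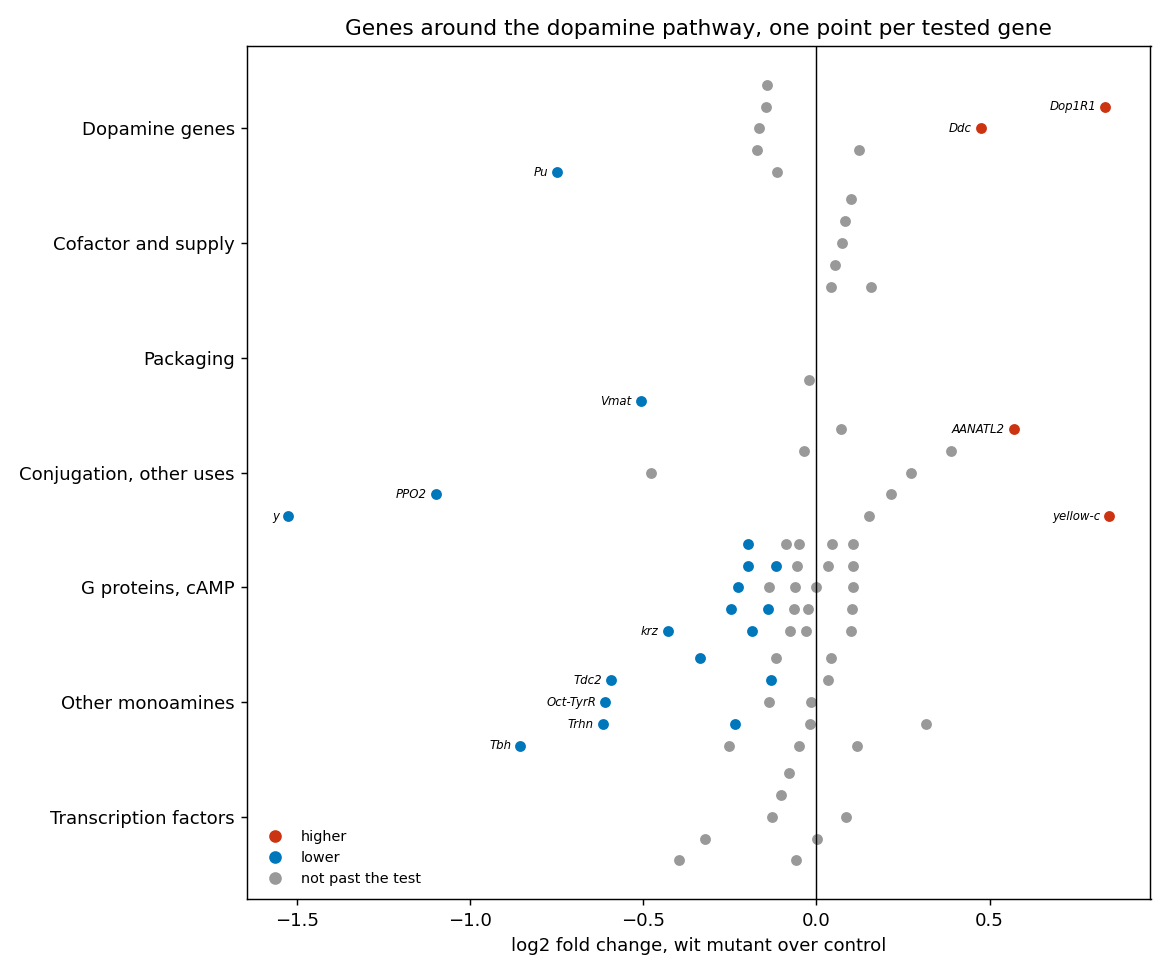
Log2 fold change (x axis, wit mutant over control) of each tested gene in the 7 lists around the dopamine pathway, with 1 point per gene. Called genes with a change of 0.4 or more on the log2 scale are named. Every called gene of the G protein and other monoamine lists lies left of 0, and Dop1R1 and yellow-c are farthest to the right.

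The genotypes differ in a whole copy of chromosome 3, which carries 5 of the 9 genes, Dop1R1 among them. On chromosome 3, 15.2% of 3948 tested genes were called, against 14.4% of 5020 on X, 2 and 4. The 6 tested neighbours of Dop1R1, 3 on each side and 34.2 to 89.6 kb away, had log2 fold changes from -0.13 to 0.04, and 0 were called. They are twf, 140up, Polr2B, MetRS-m, trx and su(Hw). Of these MetRS-m had the smallest p (edgeR adjusted p = 0.0899, unadjusted 0.0185) and passed with limma-voom and sample quality weights (adjusted p = 0.0413). Sequence differences between the chromosomes near Dop1R1 and the loss of wit cannot be told apart here.

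Ddc and Pu lie on chromosome 2, which the genotypes are not labelled as differing in. The 6 tested neighbours of Ddc, including its relative amd (-0.04) and the overlapping gene CG10561 (0.19) on the opposite strand, had log2 fold changes from -0.06 to 0.19 and were not called. CG10561 was at most 7.40 CPM, so its reads are few beside those of Ddc. The level of amd was only 0.178 to 0.564 CPM. Its 95% interval, from 0.572 to 1.66 times the control level, is wide enough to hold the 1.39-fold rise of Ddc. Among the 6 neighbours of Pu only LSm1 was called (0.26, edgeR adjusted p = 0.00630). CG4286, inside Pu on the opposite strand, reached at most 0.0752 CPM.

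**Figure D5:**
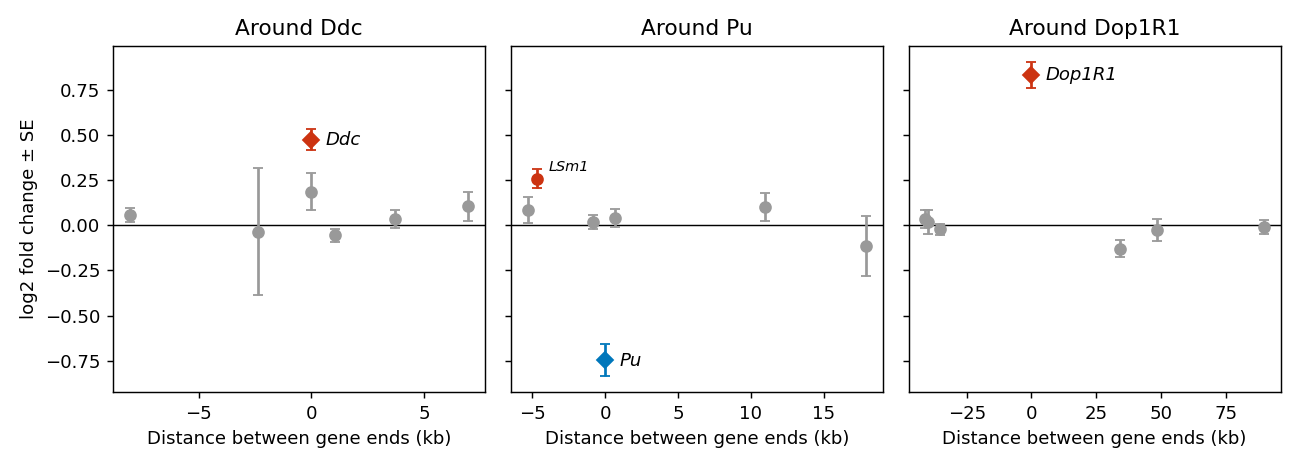
Log2 fold change with SE (y axis) of Ddc, Pu and Dop1R1 (diamonds) and of the 3 nearest tested genes on each side (circles), by the distance between gene ends in kb along the chromosome (x axis). The estimates of Ddc, Pu and Dop1R1 lie outside the range of those of their neighbours, of which LSm1 alone was called. Differences between a gene and its neighbours were not tested.

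The genes whose log2 CPM followed the called genes most closely over the 8 libraries are given as a description, since the genotype difference itself enters these correlations. For Dop1R1 they were CG3505 (r = 0.993), CG33655 (r = 0.987) and CG6654 (r = 0.986), all called higher. For Ddc they were milt (r = 0.993), CG10222 (r = 0.992) and CG7352 (r = 0.980), and for Pu kek4 (r = 0.990), CG15673 (r = 0.989) and Afg3l2 (r = 0.988). Of these, milt and Afg3l2 had log2 fold changes of 0.05 and -0.07 and were not called.

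Markers of other tissue were read beside the genes that also act in cuticle. Summed over 12 epidermis and cuticle genes, controls ran from 11.4 to 50.1 CPM and mutants from 9.57 to 16.6 CPM, with 0 of 6 tested genes called by edgeR, 4 at an unadjusted p under 0.05, 1 called lower by DESeq2 and 1 called higher by limma-voom. The tracheal list summed to 1103 to 1238 CPM in controls and 888 to 1323 CPM in mutants, where edgeR called 1 of 7 genes, Gasp (0.59), DESeq2 called 2 higher and weighted limma-voom 3. The gene obst-A had 0.63 and did not pass with edgeR (adjusted p = 0.0579). The Gasp call was lost in 10 of 17 settings, among them without control replicate 2, 3 or 4 or any of mutant replicates 2 to 4. Beside the counts of all these marker lists, edgeR called 8.66% of all genes tested lower and 6.12% higher. Of 8 imaginal disc genes 3 fell and 1 rose, and of 10 tested genes of optic lobe and mushroom body 2 fell, the genes so (-1.07) and bi (-0.28). The median over those 10 was -0.08, and the genes not called ran from -0.86 to 0.11. Glia had 4 of 10 genes lower, with a summed level of 1864 to 1920.0 CPM in controls and 1161 to 1672 CPM in mutants. For fat body 1 of 8 fell, for muscle 1 of 6 fell, and for ring gland the single gene tested, Akh, was 1.76 higher on the log2 scale without passing (adjusted p = 0.243, unadjusted p above 0.05, 0 called by DESeq2 or limma-voom). The neuronal gene elav, a defining marker of the labelled tissue, ran from 1149 to 1168 CPM over the controls and from 1022 to 1118 CPM over the mutants, without overlap (log2 fold change -0.11, edgeR adjusted p = 0.0918). DESeq2 and weighted limma-voom each called 7 of the 8 neuron markers lower, against 6 with edgeR. Of 22 marker genes called, 13 lost the call when some 1 library was left out and 5 kept it in all 17 settings. The part of these tissues in the changes of Ddc and Pu was not tested.

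For the wit transcript the control mean was 90.6 ± 3.43 CPM and the mutant mean 86.8 ± 3.97 CPM (edgeR adjusted p = 0.371). The labels do not state the lesions, so this level does not check the genotype.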

How the data were processed

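The files hold estimated counts per gene, which the authors made with kallisto 0.43.0 and build BDGP6, per the submitters' processing notes. DESeq2 is listed there with no role, and the summing of transcripts to genes is not stated in the labels. Libraries were stranded, per the labels' protocols. Of the deposited values 31.4% were not whole, and counts were rounded. A count of 3 equals 0.0916 to 0.143 CPM, and such floors cover counting error only.

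Genes were tested with edgeR 4.0.16 in R 4.3.3 (TMM scaling, minimum count 10, robust quasi-likelihood test, Benjamini-Hochberg adjustment over 9176 genes, two-sided). CPM used TMM-scaled totals. Ratios used counts plus 2 and an exact permutation test. DESeq2 1.42.0, limma 3.58.1 (voom with sample quality weights) and sva 3.50.0 served as alternatives. Gene positions and exon lengths came from Ensembl's annotation of BDGP6. On simulated data for this comparison (9176 genes) the test recovered 66% of 1.25-fold, 74% of 1.5-fold, 84% of 2-fold and 96% of 4-fold changes. Of 169 calls there 9 were false. Far fewer genes were changed in the simulation than the 1357 called in the data, so recovery in the data can differ.

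All 9 dopamine genes were named, with every called gene of the pathway lists, the 3 nearest tested genes on each side of a called dopamine gene, and the 3 genes most correlated with it. Some uncalled genes, the marker examples and controls 2 and 4 were picked after their values were seen. The dopamine genes and lists were chosen with earlier results of these data known. Listed symbols speck, PPO1 and stw were not matched and were not analysed here. The libraries of a genotype are labelled as biological replicates. Promoter motifs were not analysed here, and 1 gene of the cofactor list is not reported here.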

Additional observations from a re-analysis of the deposited data

Results flagged for a closer look

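Dop2R in mutant replicate 1 stood apart from the other 3 mutant libraries. At 89.7 CPM against 76.8 to 78.6 CPM, its gap to the nearest library was 0.861 of the range of the 4 mutants, above Dixon's 95% critical value for 4 samples. Chance flags about 1 in 20 groups, and both genotypes were checked for each of the 9 genes.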

How the results depend on the processing

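Ddc, Pu and Dop1R1 kept direction and call in all 17 alternatives, at log2 fold changes of 0.38 to 0.52, -0.81 to -0.68 and 0.79 to 0.89. Limma-voom with sample quality weights, which changes tool and weighting together, called 5 of the dopamine genes, 2 of them lower, with 989 genes higher over the whole table and 927 called on chromosome 3. With 1 surrogate variable these last 2 counts were 327 and 400. Same-numbered libraries deviated from their group means with r of -0.05, 0.04, -0.09 and -0.31, so the numbers do not pair them. The replicate block gave 301 genes higher and 394 calls on chromosome 3, and the ratio differences of Ddc to ple (0.64), Dop1R1 to Dop1R2 (0.94) and Dop1R1 to Dop2R (0.98) had an exact adjusted p of 0.167, since 4 pairs cannot pass.

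Leaving out 1 library gave 3 to 5 dopamine genes called, 2 to 3 higher and 1 to 2 lower. Over all genes it gave 304 to 1060 higher, 524 to 1124 lower and 388 to 973 on chromosome 3, lowest without control replicate 2 and highest without mutant replicate 1. The ratio differences ran from 0.52 to 0.75 (Ddc to ple), -0.24 to 0.18 (DAT to ple), 0.89 to 1.03 (Dop1R1 to Dop1R2) and 0.92 to 1.09 (Dop1R1 to Dop2R), where 3 against 4 libraries cannot pass after adjustment. Log2 fold changes that changed sign ran from -0.32 to 0.0089 for DAT, -0.26 to 0.24 for amd, -0.23 to 0.021 for CG44245, -0.014 to 0.055 for 140up, -0.073 to 0.014 for trx and -0.025 to 0.012 for su(Hw).

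Without control libraries 2 and 4, chosen after seeing the data, 144 genes were higher, 263 lower and 191 called on chromosome 3, with 2 controls left. Log2 fold changes of ple (0.059), amd (0.47), 140up (-0.00076), twf (-0.018) and trx (0.018) changed sign, and the ratio differences were 0.32, 0.98 and 0.96 for Ddc to ple, Dop1R1 to Dop1R2 and Dop1R1 to Dop2R. Of 19 called pathway genes 15 lost the call in at least 1 alternative, while Vmat, krz, Trhn and Oct-TyrR kept it. With the median transcript length, also added later, 5 of 9 genes kept their place in the order of levels. The cause of these shifts was not tested. Depth limits ple, DAT and Pu most, at 57 to 300 counts per library.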
